A study of Homo sapiens with 9 samples.

Results

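The 8 genes described here are the nuclear receptor gene PPARA and a set of genes of mitochondrial fatty acid oxidation and lipid storage that it is known to regulate, namely CPT1A, CPT2, ACADM, ACADVL, HADHA, PDK4 and PLIN2. They were chosen by name, and all 8 were found among the 22587 genes measured. A filter on low values (a mean of at least 0.5 FPKM over all libraries, where FPKM is fragments scaled by gene length and by library depth) left 11880 genes for testing, and 7 of the 8 passed it. PDK4 did not pass and is given separately.

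RNA-seq was performed in HepG2, a human cell line from a liver tumor, in 3 groups of 3 libraries. The first group, here named Gln added, is labelled as normal medium with a GlutaMAX supplement as the source of glutamine (Gln). The other groups were deprived of Gln for 12 h or 24 h. All groups share the same line and a high-glucose medium with serum, and no genetic change is labelled. The labels do not give how long the Gln-added cells were in their medium, and both their treatment description and the methods of the study place GlutaMAX in the Gln-free medium of the deprivation. The group names follow the treatment label of each library, and which cells received GlutaMAX is uncertain. Nothing in the labels says that the libraries of a group came from separate cultures, so the p-values measure the spread between these libraries, which may be technical. With bulk RNA, fewer cells of a type and less RNA per cell cannot be told apart.

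Each library held between 29621270 and 36261546 fragments on genes. All 10 hepatocyte markers checked, ALB and HNF4A among them, were above the filter, and their summed level was 10110 to 10165 FPKM in the Gln-added group, 8736 to 9034 after 12 h and 8780 to 9314 after 24 h. None of 6 fibroblast or 4 endothelial markers was above the filter. Among leukocyte markers, CD68 and LYZ were above it. In the Gln-added, 12 h and 24 h groups, the mean level of CD68 was 36.1, 29.6 and 22.9 FPKM, and that of LYZ was 741.9, 539.4 and 767.2 FPKM. The part of these shifts in the results below was not tested.

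Mitochondrial fatty acid oxidation removes units of acetyl-CoA from a fatty acid in repeated rounds of dehydrogenation, hydration, a further dehydrogenation and thiolysis. Long-chain fatty acids first need to be coupled to carnitine on the outer mitochondrial membrane, carried inside and coupled back to coenzyme A. PPAR alpha is a receptor for fatty acids that pairs with a retinoid X receptor on DNA and is known in liver as a regulator of this pathway in fasting.

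The level of PPARA did not change detectably, while CPT1A, ACADVL and PLIN2 were higher and ACADM was lower at both times. CPT2 was lower at 12 h and HADHA at 24 h. By limma with Benjamini-Hochberg adjustment, 3 of the 7 tested genes were higher at 12 h than with Gln added and 2 were lower, against 29.1% and 31.0% of all genes tested. At 24 h, 3 were again higher and 2 lower, against 33.0% and 31.7%. Between 24 h and 12 h, 1 was higher and 2 were lower, against 9.57% and 10.5%. The 12 h and 24 h groups were both compared with the same Gln-added libraries. The median difference of the 7 genes was 0.02 on the log2 scale at both times, beside -0.02 (12 h) and 0.01 (24 h) for all genes tested. The genes went both ways, with a range of -0.35 to 0.70 after 12 h and of -0.30 to 0.65 after 24 h, and the median is the value of PPARA.

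**Figure D1:**
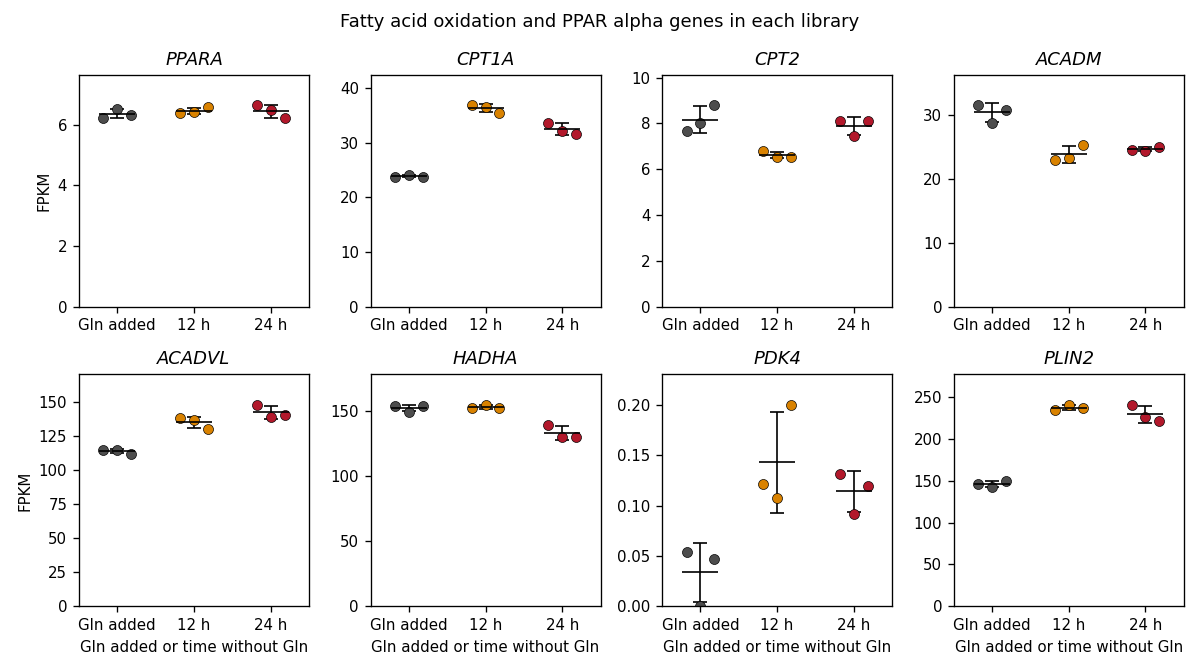
FPKM (vertical axes, each from 0) of the 8 genes by library, grouped by Gln added and 12 h or 24 h without it (horizontal axes), with 1 point per library and the mean ± SD of the 3 libraries of a group. The points of CPT1A and PLIN2 lie above all Gln-added points at both times, those of ACADM lie below them, and those of PPARA overlap.

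The promoters of the 2 genes with the largest rises among those tested are shown because their levels went up together and because PPAR alpha acts at DNA. RefSeq promoters (GRCh38.p14, 250 bases before to 50 after a start) were held for all 8 genes, in 10 windows. The stretches printed read 5′ to 3′ on the strand of the gene and end before any annotated exon. For PLIN2 this is chr9:19127493-19127742 on the minus strand, the 250 bases before the RefSeq start, inside the annotated span of the gene but in none of its exons. For CPT1A it is chr11:68844411-68844527 on the minus strand, 117 bases that end just before the annotated gene. Capitals mark the palindrome CACGTG, called an E-box.
PLIN2: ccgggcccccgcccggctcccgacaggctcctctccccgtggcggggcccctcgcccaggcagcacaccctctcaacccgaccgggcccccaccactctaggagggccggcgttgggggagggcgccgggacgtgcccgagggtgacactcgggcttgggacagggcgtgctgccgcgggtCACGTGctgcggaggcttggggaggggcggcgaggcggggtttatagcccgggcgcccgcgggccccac
CPT1A: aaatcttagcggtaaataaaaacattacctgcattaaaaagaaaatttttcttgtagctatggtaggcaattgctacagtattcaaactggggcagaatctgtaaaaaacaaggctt
None of the 10 windows held the hexamer AGGTCA on either strand, which is the core of a PPAR alpha site and was present in 13.8% of 35116 RefSeq promoters. It follows that none held 2 of these hexamers with 1 base between (DR1), found in 0.0228% of promoters. The letters TGATGCAA, known from amino acid response elements, were in none of the 10 windows and in 0.866% of all promoters. TGANTCA, the AP-1 motif, was found in 1 of the 10 windows, at the second ACADVL start, and in 7.71% of all promoters. CCAAT was found in 2 of the 10 windows, for PDK4 and PPARA, and in 34.6% of all promoters. The E-box of PLIN2 begins 69 bases before the start. It was searched after the sequences had been seen, and 7.26% of all promoters held one. A match describes letters in these windows alone and not a site in use. The absence of an exact match likewise covers only these letters and windows, and does not show that a gene lacks a PPAR alpha site.

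PPARA (chr22:46150521-46243755, GRCh38, plus strand) encodes the receptor itself. Its level in the 3 libraries with Gln added was 6.24, 6.53 and 6.32 FPKM. At 12 h it was 6.39, 6.43 and 6.58 FPKM, and at 24 h 6.65, 6.48 and 6.22 FPKM. The 3 groups overlapped, and no library stood apart. Each value rests on 2138 to 2690 fragments. The difference from Gln added was 0.02 on the log2 scale at 12 h (95% interval -0.08 to 0.13, adjusted p = 0.690) and 0.02 at 24 h (-0.08 to 0.12, adjusted p = 0.738). In folds, the interval was 0.945 to 1.09 at 12 h and 0.943 to 1.09 at 24 h.

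CPT1A (chr11:68754620-68844410, minus strand) encodes the liver form of carnitine palmitoyltransferase I, which couples long-chain fatty acids to carnitine and is the main control point of their entry into mitochondria. It was measured at 23.7, 24.1 and 23.8 FPKM with Gln added. At 12 h the libraries held 36.9, 36.6 and 35.5 FPKM, and at 24 h 33.7, 32.2 and 31.7 FPKM. The groups did not overlap, with Gln added lowest and 12 h highest. The mean rose from 23.9 ± 0.171 FPKM (SD, n = 3) by 52.3% at 12 h and by 36.1% at 24 h. The log2 difference was 0.60 (SE 0.036, adjusted p = 2.27e-07) at 12 h and 0.44 (SE 0.036, adjusted p = 1.6e-06) at 24 h. From 12 h to 24 h the level fell by 0.16 on the log2 scale (adjusted p = 0.0109), so part of the rise was gone at the later time. Among all genes tested, 6.68% had a larger rise at 12 h and 15.6% at 24 h.

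CPT2 (chr1:53196792-53214197, plus strand) encodes carnitine palmitoyltransferase II, the inner membrane enzyme that couples the fatty acid back to coenzyme A. With Gln added its libraries held 7.66, 8.01 and 8.80 FPKM. At 12 h they held 6.78, 6.55 and 6.52 FPKM, and at 24 h 8.09, 7.43 and 8.11 FPKM. All 12 h values lay below all others, whereas the 24 h values overlapped those with Gln added. The log2 difference was -0.30 at 12 h (SE 0.060, adjusted p = 0.00156). At 24 h it was -0.05 (95% interval -0.18 to 0.09, adjusted p = 0.503). The 24 h level was above the 12 h level by 0.25 on the log2 scale (adjusted p = 0.0162). That last call was lost without replicate 2 of the 12 h group (0.24, adjusted p = 0.0525) and without replicate 3 of the 24 h group (0.23, adjusted p = 0.060). CPT2 had 542 to 845 fragments per library, and 12.4% of its annotated exonic bases overlap CZIB or another gene on the opposite strand. Whether strand was used in counting is not given in the sources used here, so reads from those bases cannot be assigned with certainty.

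The acyl-CoA dehydrogenases carry out the first step of each round, and ACADVL and ACADM differ in the chain length they act on. ACADVL (chr17:7217125-7225266, plus strand) encodes the very long-chain enzyme. Its level with Gln added was 114.8, 114.8 and 112.2 FPKM. It was 138.2, 136.9 and 130.3 FPKM at 12 h and 148.2, 139.3 and 140.3 FPKM at 24 h. Every library without Gln was above every library with it. The log2 difference was 0.25 at 12 h (SE 0.037, adjusted p = 0.000188) and 0.32 at 24 h (SE 0.037, adjusted p = 1.95e-05). The further difference between 24 h and 12 h was 0.08 (95% interval -0.00 to 0.16), which did not pass the test (adjusted p = 0.166), although the groups did not overlap.

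ACADM (chr1:75724431-75787575, plus strand) encodes the medium-chain enzyme, which takes over as the chain is shortened. It went the other way. The libraries with Gln added held 31.5, 28.8 and 30.8 FPKM, and those at 12 h held 22.9, 23.2 and 25.3 FPKM. At 24 h the libraries held 24.6, 24.3 and 25.02 FPKM. All 6 libraries without Gln lay below the lowest library with Gln, and the 12 h and 24 h groups overlapped. The level fell by 21.6% at 12 h (log2 difference -0.35, SE 0.048, adjusted p = 0.000112). At 24 h it was 18.9% lower (log2 difference -0.30, SE 0.048, adjusted p = 0.000279). The difference between 24 h and 12 h was 0.05 (95% interval -0.06 to 0.16, adjusted p = 0.505). Of the annotated exonic bases of ACADM, 9.83% overlap a gene on the opposite strand and 1.14% a gene on the same strand. The overlapping genes are DLSTP1 and RABGGTB, and the same limit holds as for CPT2.

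HADHA (chr2:26190635-26244672, minus strand) encodes the alpha subunit of the mitochondrial trifunctional protein, which carries the hydratase and the second dehydrogenase for long chains. With Gln added its libraries held 154.2, 149.5 and 153.5 FPKM, and at 12 h 152.2, 154.9 and 152.5 FPKM. At 24 h they held 139.2, 129.9 and 130.0 FPKM. The first groups overlapped, and all 24 h values were below them. The log2 difference at 12 h was 0.01 (95% interval -0.07 to 0.09, adjusted p = 0.863). At 24 h the level was 12.7% lower than with Gln added (log2 difference -0.20, SE 0.035, adjusted p = 0.000549). It was also lower than at 12 h, by a log2 difference of -0.20 (adjusted p = 0.00265).

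PDK4 (chr7:95583499-95596516, minus strand) encodes a kinase that switches off the pyruvate dehydrogenase complex and so limits the use of glucose carbon when fat is burned. It was nearly silent in these cells. The 3 libraries with Gln added held 7, 0 and 6 fragments, which is 0.0545, 0 and 0.0468 FPKM. At 12 h there were 13, 14 and 26 fragments (0.122, 0.107 and 0.200 FPKM), and at 24 h 17, 11 and 15 (0.132, 0.0919 and 0.119 FPKM). Every library without Gln held more than every library with it. The rate over the summed fragments, 13 with Gln added and 53 at 12 h, was 4.25 times as high at 12 h (95% interval 2.28 to 8.50). With 43 fragments it was 3.38 times as high at 24 h (95% interval 1.78 to 6.85). These intervals cover counting error only.

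PDK4 was tested with limma only in a fit without the filter. The log2(FPKM + 0.1) difference was 0.87 at 12 h (SE 0.20, adjusted p = 0.0104) and 0.70 at 24 h (SE 0.20, adjusted p = 0.0252). This scale understates the change of a gene so near 0. The 24 h call was lost with a pseudocount of 0.01 (1.89, adjusted p = 0.0560). It was also lost without replicate 2 of Gln added (0.50, adjusted p = 0.0764), without replicate 1 of 24 h (0.64, adjusted p = 0.0889) and without replicate 3 of 24 h (0.68, adjusted p = 0.0831). Between 24 h and 12 h the summed fragments had a ratio of 0.795 (95% interval 0.519 to 1.21).

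PLIN2 (chr9:19108375-19149290, minus strand) encodes perilipin 2, the coat protein found on lipid droplets of most cells, and is widely read as a marker of stored fat. It had the largest rise of the 7 tested genes at both times. With Gln added it was at 146.8, 142.8 and 149.5 FPKM. At 12 h the libraries held 235.2, 241.1 and 236.9 FPKM, and at 24 h 240.8, 225.8 and 221.8 FPKM. All 6 values without Gln lay far above the highest value with Gln, and the 12 h and 24 h groups overlapped. The level was 1.62 times as high at 12 h (log2 difference 0.70, SE 0.037, adjusted p = 9.62e-08) and 1.57 times at 24 h (log2 difference 0.65, SE 0.037, adjusted p = 1.05e-07). The difference between the times was -0.05 (95% interval -0.13 to 0.03, adjusted p = 0.363). A larger rise was found for 5.00% of all genes tested at 12 h and for 8.21% at 24 h.

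For single genes, a two-sided exact permutation test of 3 libraries against 3 can give no p below 0.1. At 12 h it gave 0.1 for CPT1A, CPT2, ACADM, ACADVL, PDK4 and PLIN2, whose groups did not overlap, 0.4 for PPARA and 0.8 for HADHA. The share of all genes tested whose groups did not overlap was not computed. By limma, a different measure, 29.1% of them were higher and 31.0% lower at 12 h. Without that share, groups that do not overlap cannot be read as particular to these members.

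**Figure D2:**
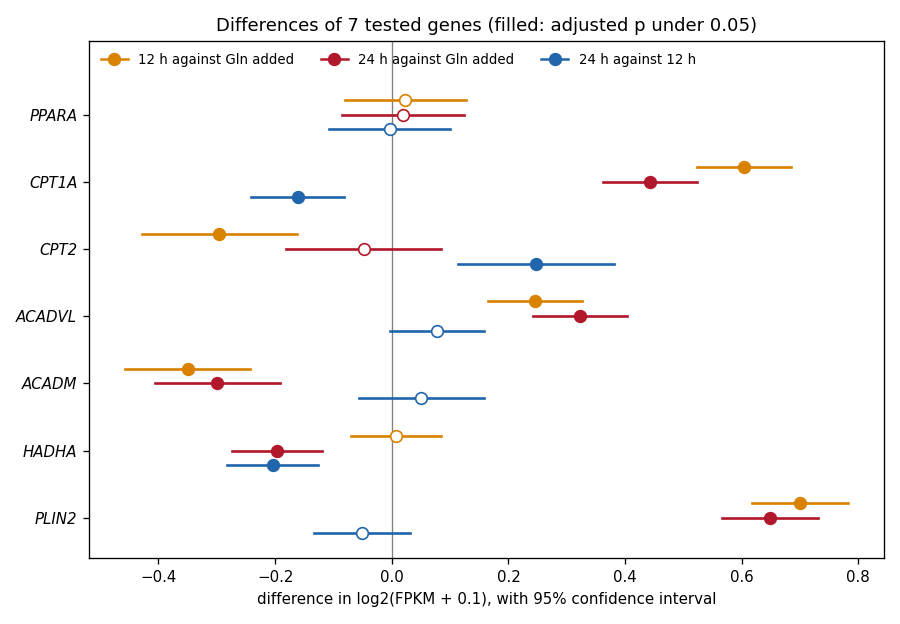
Difference in log2(FPKM + 0.1) (horizontal axis) of the 7 tested genes (vertical axis) for 12 h against Gln added, 24 h against Gln added and 24 h against 12 h, with the 95% interval as a line and a filled point where the adjusted p was under 0.05. The 3 intervals of PPARA include 0, those of CPT1A do not, and CPT2 and ACADVL have their 12 h differences on opposite sides of 0.

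FPKM are per length, so the levels of the 8 genes can be set in order. With Gln added the order from high to low was HADHA, PLIN2, ACADVL, ACADM, CPT1A, CPT2, PPARA and PDK4, and the ranges of no 2 neighbours overlapped. HADHA and PLIN2 were barely apart, with a lowest HADHA value of 149.49 FPKM and a highest PLIN2 value of 149.47 FPKM. At 12 h PLIN2 (237.7 ± 3.07 FPKM, SD, n = 3) stood above HADHA (153.2 ± 1.47 FPKM), and CPT1A (36.4 ± 0.735 FPKM) stood above ACADM (23.8 ± 1.28 FPKM). CPT2 (6.62 ± 0.142 FPKM) and PPARA (6.47 ± 0.101 FPKM) overlapped at 12 h only. At 24 h ACADVL (142.6 ± 4.86 FPKM) stood above HADHA (133.0 ± 5.34 FPKM). Within a group, the SD was at most 7.19% of the mean for the 7 tested genes. Over 12910 genes, replicate 1 of 24 h stood farther from replicates 2 and 3 (chi-square per degree of freedom 15.3 and 10.2) than these did from each other (5.45), and replicate 3 of 12 h stood farther from replicates 1 and 2 (8.19 and 8.76) than these from each other (3.47). Replicate 1 of 24 h held the highest of the 3 values of its group for PPARA, CPT1A, ACADVL, HADHA, PDK4 and PLIN2. Without it, the log2 difference from Gln added at 24 h was 0.42 for CPT1A, 0.30 for ACADVL, -0.23 for HADHA and 0.61 for PLIN2, and each of these 4 still passed the test. Without replicate 3 of 12 h, the same 5 members were called at 12 h.

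The ratio of related genes within a library does not depend on depth. These ratios were chosen after the values had been seen. CPT1A over CPT2, the outer over the inner carnitine enzyme, was 2.94 ± 0.203 (SD, n = 3) when Gln was added, 5.49 ± 0.0789 at 12 h and 4.13 ± 0.213 at 24 h. No groups overlapped, and the exact permutation p of each of the 3 comparisons was 0.1, the smallest this design allows. ACADVL over ACADM was 3.76 ± 0.203 when Gln was added, 5.70 ± 0.471 at 12 h and 5.79 ± 0.221 at 24 h, with both deprived groups above Gln added and overlapping each other. PLIN2 over PLIN3, a perilipin of small droplets with 18.3% of its annotated exonic bases overlapped on the opposite strand, was 3.09 ± 0.0706, 4.94 ± 0.156 and 4.20 ± 0.174 in the same order, and no groups overlapped. HADHA over HADHB, the beta subunit of the same trifunctional protein, was 1.50 ± 0.0381, 1.52 ± 0.0349 and 1.43 ± 0.0646, and the groups overlapped. HADHB itself was lower at 24 h than with Gln added (log2 difference -0.13, adjusted p = 0.00871), as HADHA was.

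**Figure D3:**
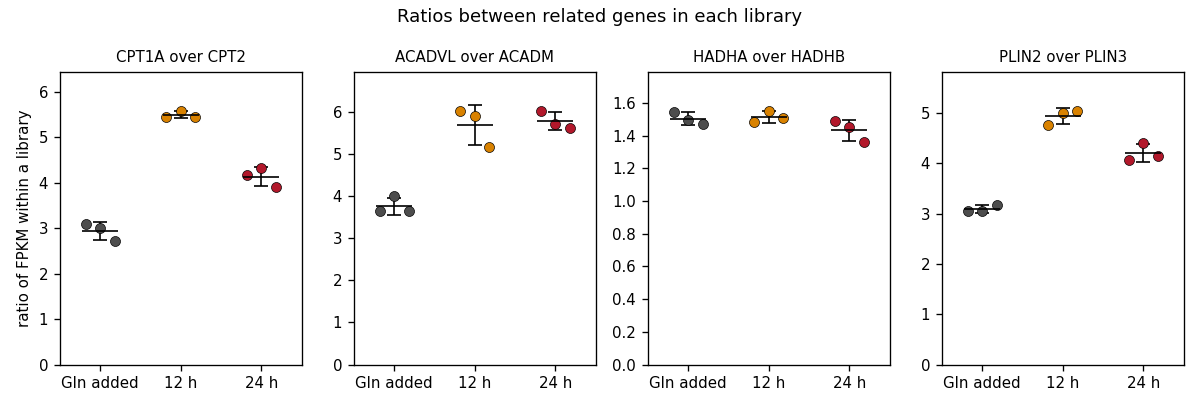
Ratio of the FPKM of 2 related genes within a library (vertical axes, each from 0) by group (horizontal axes), with 1 point per library and the mean ± SD of 3 libraries. CPT1A over CPT2 and PLIN2 over PLIN3 are highest at 12 h, ACADVL over ACADM is raised at both times, and HADHA over HADHB overlaps in all groups.

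The other genes of the pathway were taken from 8 lists of genes known to act beside these members. The counts in each list can be read against all genes tested, of which 29.1% were higher and 31.0% lower at 12 h, and 33.0% and 31.7% at 24 h. In fatty acid uptake, activation and the carnitine shuttle, 15 of 18 genes were tested. At 12 h, 4 were higher and 6 lower (median log2 difference 0.00), and at 24 h 3 were higher and 8 lower (median -0.24). Rescaled to the same total FPKM, 5 were higher and 4 lower at 12 h. Upstream of CPT1A, ACSL5, which activates fatty acids with coenzyme A, rose from 45.2 ± 1.89 FPKM to 70.8 ± 1.26 at 12 h and 102.9 ± 1.85 at 24 h. ACACA, an acetyl-CoA carboxylase whose product malonyl-CoA blocks carnitine palmitoyltransferase I, is among the genes counted as lower at both times. Its log2 difference was -0.74 at 12 h (adjusted p = 4.59e-07) and -0.81 at 24 h (adjusted p = 1.48e-07). ACACB, the other acetyl-CoA carboxylase gene of the list, was lower too, at a mean of 1.79 FPKM with Gln added. The log2 difference of ACACB was -0.27 at 12 h (adjusted p = 0.0349) and -0.57 at 24 h (adjusted p = 0.000486). FABP1, the liver fatty acid binding protein, had the largest fall of this list at 12 h where the mean was 1 FPKM or more (log2 difference -0.93, adjusted p = 8e-08). CPT1B and CPT1C, the muscle and brain forms of the enzyme, had means of at most 0.0669 FPKM in any group. Of the annotated exonic bases of CPT1B, 66.4% overlap the readthrough gene CHKB-CPT1B on the same strand, so its reads may not all have been assigned to it.

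In mitochondrial beta-oxidation besides ACADM, ACADVL and HADHA, 15 of 16 genes were tested. The share that was lower was 8 of 15 at 12 h and 10 of 15 at 24 h, while 1 and 0 were higher. The 0 at 24 h was also 0 by voom on recovered fragments, and 1 gene (ETFDH) had an unadjusted p under 0.05. The median log2 difference was -0.16 at 12 h and -0.32 at 24 h. HADH, the dehydrogenase for shorter chains that follows ACADM in a round, fell from 27.0 ± 1.13 FPKM to 16.7 ± 0.772 at 12 h and 11.8 ± 1.22 at 24 h. ETFDH, which passes the electrons of ACADM and ACADVL to the respiratory chain, was the 1 gene that was higher at 12 h (log2 difference 0.25, adjusted p = 0.0205). Between 24 h and 12 h, 7 of the 15 were lower and 0 higher by limma (0 by voom, and 1 at an unadjusted p under 0.05), beside HADHA. Rescaled to the same total FPKM, 7 were lower at 12 h and 9 at 24 h, with 1 higher at each time.

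In peroxisomal beta-oxidation, which shortens very long chains before they reach mitochondria, 13 of 15 genes were tested, and 9 were lower and 1 higher at each time (median -0.22 and -0.38). ACAA1, the peroxisomal thiolase, had the largest fall at 12 h (-0.69), and 19.7% of its annotated exonic bases overlap a gene on the opposite strand. EHHADH, the bifunctional enzyme, had the largest fall at 24 h (-0.87). Among 4 tested of 6 ketone body genes, 3 were lower at 12 h and 2 at 24 h, and BDH2 had the largest fall (-0.81 and -0.83).

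**Figure D4:**
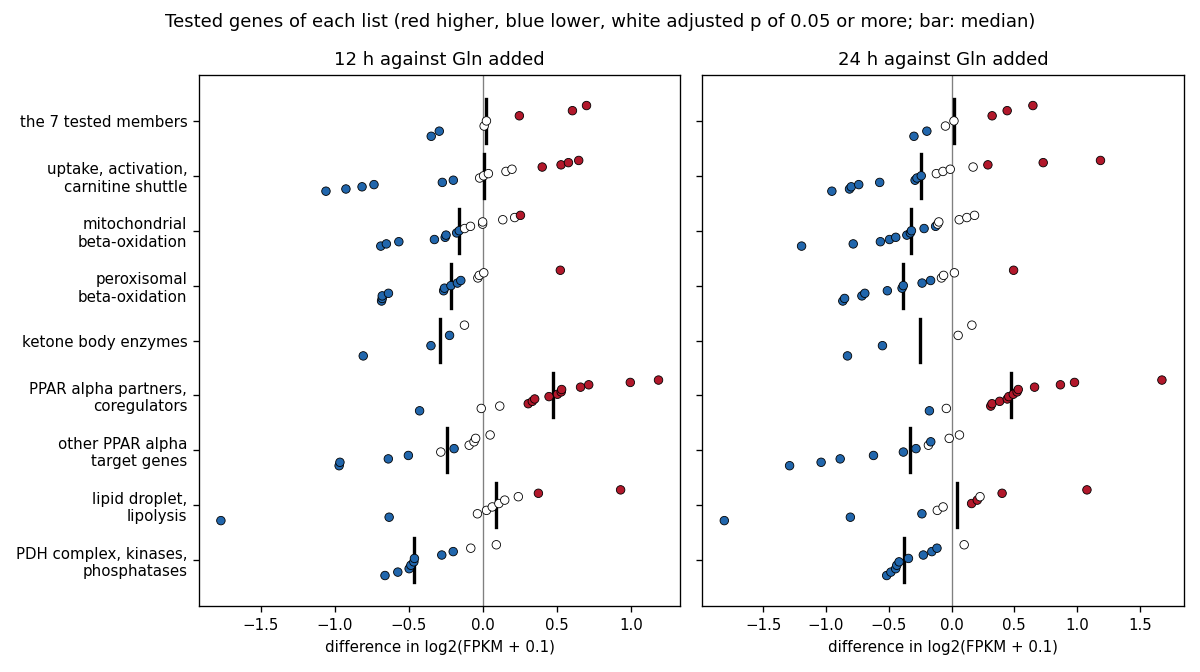
Difference in log2(FPKM + 0.1) (horizontal axes) of each tested gene at 12 h and at 24 h against Gln added, by list (vertical axis), with red for genes that were higher, blue for lower, white for an adjusted p of 0.05 or more and a bar at the median. Mitochondrial and peroxisomal beta-oxidation genes lie mostly on the lower side, and partners and coregulators of PPAR alpha mostly on the higher side.

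While PPARA did not change detectably, 11 of 14 tested genes (of 15 listed) for its partners and coregulators were higher at 12 h and 12 at 24 h, and 1 was lower at each time. The median log2 difference was 0.47 at both times. PPARGC1A, the coactivator PGC-1 alpha that works with PPAR alpha on oxidation genes, had the largest rise, from 1.16 ± 0.00773 FPKM to 2.77 ± 0.267 at 12 h and 3.92 ± 0.234 at 24 h. LPIN1, the gene that was lower at 12 h (-0.43), encodes lipin 1, a partner of both. RXRA, a DNA-binding partner of PPAR alpha, was the gene that was lower at 24 h (-0.18, adjusted p = 0.00336). RXRB, another retinoid X receptor gene of the list, was higher at 12 h (0.35, adjusted p = 0.00096) and at 24 h (0.49, adjusted p = 7.23e-05).

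Of 15 other genes known as PPAR alpha targets, 10 were tested. None of these 10 was higher at an adjusted p under 0.05 at either time by limma or by voom on recovered fragments. At an unadjusted p under 0.05 the count was also 0. In this list 5 were lower at 12 h and 7 at 24 h (4 and 7 by voom), with a median of -0.24 and -0.33. UCP2, a mitochondrial carrier, had the largest fall, from 26.7 ± 1.18 FPKM to 13.6 ± 1.18 at 12 h and 10.9 ± 0.797 at 24 h. FGF21 and G0S2 did not pass the filter and were not tested. FGF21 had means of 0.0140, 0.0730 and 0.0844 FPKM in the Gln-added, 12 h and 24 h groups, and G0S2 was listed at 0 in all Gln-added libraries and had means of 0.140 and 0.218 FPKM at 12 h and 24 h. Of the members, which are known targets as well, CPT1A, ACADVL and PLIN2 were higher at both times, ACADM was lower at both, CPT2 was lower at 12 h and HADHA at 24 h. The 0 holds for this list alone, because genes counted in the other lists were left out of it. In those lists, ACSL1 was higher at 12 h and 24 h (0.53 and 0.29) and SLC22A5 at 12 h (0.40). FABP1 (-0.93 and -0.80) and EHHADH (-0.68 and -0.87) were lower at both times.

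Beside PLIN2, 10 of 18 genes of the droplet coat and of lipolysis were tested, with 2 higher and 2 lower at 12 h and 4 higher and 3 lower at 24 h (median 0.08 and 0.05). PNPLA2, the first lipase of stored fat, had the largest rise (0.93 and 1.08), and 10.5% of its annotated exonic bases overlap a gene on the opposite strand. PNPLA3 had the largest fall of the list (-1.77 and -1.81). The perilipins PLIN1, PLIN4 and PLIN5 were below the filter in mean level, which leaves PLIN2 and PLIN3 as the measured coat genes of that family.

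Beside PDK4, all 10 genes of the pyruvate dehydrogenase complex and its other kinases and phosphatases were tested, and 8 were lower at 12 h and 9 at 24 h (median -0.47 and -0.38). At both times 0 were higher by limma, by voom and at an unadjusted p under 0.05. The other kinase genes PDK1, PDK2 and PDK3 were among those lower at both times, at 2.96, 4.50 and 1.87 FPKM with Gln added and 1.96, 3.18 and 1.16 FPKM at 12 h. For PDK2, 38.6% of the annotated exonic bases overlap SAMD14 on the opposite strand, with the same limit as for CPT2. PDK3 had the largest fall of the list at 12 h (-0.66) and the phosphatase gene PDP2 at 24 h (-0.52).

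Over the 9 libraries, the genes with the pattern most like that of a member were named by the Pearson correlation of log2(FPKM + 0.1) among 10868 genes at a mean of at least 1 FPKM. The libraries fall into the same 3 groups for every gene, so these values mostly describe the order of the groups. For CPT1A they were NKD1 (r = 0.998), EIF1 (0.997) and CSNK2A2 (0.996), all with the highest mean at 12 h. For PLIN2 they were SARS1, PER2 and PPP4R1 (each 0.997). For PDK4 they were ATP6V0A2 (0.965), VPS54 (0.964) and ODR4 (0.964). For PPARA, whose groups overlapped, the highest values were lower, at 0.857 for HHLA3, 0.857 for LINC00997 and 0.847 for TMLHE.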

How the data were processed

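RNA-seq libraries of HepG2 cells with Gln added or deprived of Gln for 12 h or 24 h (3 each) were analysed. According to the methods, the authors aligned reads to GRCh38 with STAR and used DESeq2 for their own tests. HTSeq and R 3.2.0 are named in the submitters' processing notes, and the annotation is not given in the sources used here. The values the authors deposited are FPKM, for each gene in each library. The labels and the methods name different library kits, so strand use is uncertain.

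FPKM are not counts, so log2(FPKM + 0.1) was tested with limma 3.58.1 in R 4.3.3 (eBayes with a trend, the 3 groups in 1 fit, Benjamini-Hochberg adjustment over genes whose mean was 0.5 FPKM or more, threshold 0.05). Whole fragments were recovered from the steps of the FPKM values for 100% of genes (tolerance 0.02 fragments), and gave the depth and the voom alternative. The steps were tested on simulated data. Exact permutation tests used SciPy 1.17.1. Positions and exon overlaps are from GENCODE (GRCh38), and promoters from RefSeq. Named genes were the 8 members, the genes with the largest rise and fall past the threshold in each list at a mean of at least 1 FPKM, and the 3 genes most correlated with PPARA, CPT1A, PDK4 and PLIN2. Others (HADHB, CPT1B, CPT1C, PLIN1, PLIN3, PLIN4, PLIN5, PDK1, PDK2, FGF21, G0S2, RXRB, ACSL1, SLC22A5, ACACB) were named after their values were seen. Values of some single genes of the lists are not reported here. The members and the lists were chosen with earlier results of these data known. Alternatives were the pseudocount, the filter, the scaling, the groups in the fit, a replicate block, eBayes without a trend, voom, and each library left out.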

Additional observations from a re-analysis of the deposited data

Results flagged for a closer look

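For 3 of the 7 tested genes the change from Gln added differed between the times, as tested by the direct contrast of 24 h with 12 h in limma. CPT1A was lower at 24 h than at 12 h, with a log2 difference of -0.16 (adjusted p = 0.0109). CPT2 was higher at 24 h, with a log2 difference of 0.25 (adjusted p = 0.0162), a call that 2 single libraries could undo. HADHA was lower at 24 h, with a log2 difference of -0.20 (adjusted p = 0.00265). In each of the 3, the 24 h libraries did not overlap the 12 h libraries. The same held for ACADVL, which was not called by limma (adjusted p = 0.166), so this does not set the 3 apart. The share of all genes tested with such groups was not computed.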

How the results depend on the processing

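Over 42 results and 792 alternative values, no called value changed direction. Calls were lost in 6, which are 4 of PDK4 at 24 h and 2 of CPT2 between the times, given with those genes, and the counts of members called at 12 h and at 24 h against Gln added were within 1.5 times throughout. Between 24 h and 12 h, the count of members that were higher was 1, and 0 to 1 with a library left out. In the 8 lists, 31 genes differed between 24 h and 12 h (10 higher, 21 lower). With only the groups compared in the fit there were 17, of which 10 were lower, and without the filter on low values 22 differed and 14 were lower. With a library left out there were 17 to 30, of which 5 to 11 were higher and 10 to 20 lower. The libraries with the lowest counts were replicate 2 of 12 h (17) and replicate 3 of 24 h (17), and the cause was not tested. The log2 difference of PDK4 at 12 h went from 0.14 (pseudocount 1) to 2.65 (voom). Deviations from the group mean had correlations of -0.14 to 0.28 for libraries that share a replicate number, with 2 of 9 over 0.1. Those 2 were between 12 h and 24 h, for replicate 1 (0.25) and replicate 3 (0.28). For other numbers the correlations were -0.47 to 0.30, with 2 of 18 over 0.1. Deviations within a group of 3 depend on each other. This check therefore cannot decide whether the numbers pair the libraries. With a replicate block, 5 members were called at 12 h, 5 at 24 h and 3 between the times, as without it, and 36 list genes differed between the times.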
